A study of Mus musculus with 2 samples.

Results

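The data described here are the levels of 10 integrin genes, of 32285 genes in the files, in single cells of the mouse colon. They were chosen by name as the integrin subunits that mark or position leukocytes: Itgam (alpha M, CD11b), Itgax (alpha X, CD11c), Itgal (alpha L, CD11a) and Itgb2 (beta 2, CD18), then Itgae (alpha E, CD103) and Itgb7 (beta 7), then Itga4 (alpha 4, CD49d), Itgb1 (beta 1, CD29), Itga1 (alpha 1, CD49a) and Itga2 (alpha 2, CD49b). The study compared mice with loxP-flanked Runx3 alleles (RUNX3 fl/fl) that also carried Lyz2-Cre, which acts in cells of the myeloid lineage, with RUNX3 fl/fl littermates without Cre, and described pools of young adult male mice. GEO holds 2 libraries, titled Runx3_fl and Runx3, and gives no treatment, strain, age or genotype in its sample labels. No label states which of them carried Cre, so both are called here by their titles and no genotype was assigned. The labels give both as CD11b+ cells of the gut lamina propria, the connective tissue below the gut epithelium. CD11b is the protein of Itgam, so the sort itself used a gene of this set.

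Integrins are surface receptors made of an alpha and a beta chain, and a chain reaches the surface only with its partner. Beta 2 pairs with alpha L (LFA-1), alpha M (Mac-1, complement receptor 3) and alpha X, which bind ICAMs, fibrinogen and complement fragments and hold neutrophils, monocytes and lymphocytes to vessel walls and to target cells. Beta 7 pairs with alpha 4 to bind MAdCAM-1 on gut venules, which brings leukocytes into the gut, and with alpha E to bind E-cadherin on epithelial cells. Beta 1 pairs with alpha 4 to bind VCAM-1 and fibronectin, and with alpha 1 or alpha 2 to bind collagens. Integrins change from a resting to an active form without any change in their RNA, so RNA levels say nothing of adhesion.

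The Runx3_fl library kept 11885 cells and the Runx3 library 8167 after the study's filters. Their summed unique molecular identifiers (UMIs, counts of single RNA molecules) were 136381056 and 65556454, and the median cell had 9573 and 5731. Cells were put into 8 classes by marker genes: NK cells (Ncr1 without CD3 genes), CD8 T cells (CD3 genes with Cd8a or Cd8b1), CD4 T cells (CD3 genes with Cd4), B cells (Cd79a), neutrophils (Csf3r), cDC1 (Xcr1), cDC2 (Cd209a) and macrophages (Csf1r with C1qa). The classes held 4630 cells (39.0%) and 2531 cells (31.0%) of the libraries. Of markers that the gates did not use, 8 of 8 were at least 2-fold above the other cells in each of NK, CD8 T, CD4 T, B, neutrophil and cDC1 classes, 10 of 10 in macrophages, and 6 of 8 in cDC2, where Sirpa and Irf4 were not, with both libraries pooled. Within the Runx3_fl library the counts were 7 of 8 in CD8 T cells and in cDC1 and 8 of 10 in macrophages, and those of the other 5 classes and of the Runx3 library were as in the pool. The labelled CD11b+ sort did not leave myeloid cells alone: the Runx3_fl library held 1232 CD8 T and 1340 CD4 T cells beside 656 neutrophils and 300 macrophages, and the Runx3 library 1053 B cells beside 713 neutrophils and 280 macrophages. The libraries also differed in ways that the labels do not give. Xist, the RNA of the inactive X chromosome of females, was at 212 and 0.183 CPM (counts per 1000000 UMIs), although both pools were described as male. Runx3 was at 162 and 237 CPM in macrophages and at 822 and 526 CPM in NK cells. They shared 37 cell barcodes, and none of the 2-fold calls below depended on those. With 1 library per group no test of a difference was possible, no p-value is given, and each interval below is an exact 95% interval that covers counting error only.

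Levels are the UMIs of a gene summed over the cells of a class, as CPM of all UMIs of that class, and values for the Runx3_fl library come first. Itgam (ENSMUSG00000030786, chr7:128062640-128118491, plus strand, GRCm38) was highest in neutrophils, at 201 (186 to 216) and 407 CPM (391 to 424). Macrophages had 138 (127 to 149) and 226 CPM (210.3 to 243), cDC2 had 131 (117 to 147) and 172 CPM (156 to 189.6), and NK cells had 146 (135 to 157) and 128 CPM (103 to 159). These 4 classes stood apart from the rest in both libraries, and their intervals did not overlap those of any of the other 4. In the Runx3_fl library NK cells and macrophages overlapped, as did macrophages and cDC2, whereas in the Runx3 library only cDC2 and NK cells did. Itgam in CD8 T cells was at 41.1 and 20.9 CPM, in CD4 T cells at 46.5 and 12.3 CPM and in B cells at 21.9 and 19.6 CPM. Its lowest level in the Runx3_fl library was in cDC1, at 10.4 CPM (7.97 to 13.3), and those of the Runx3 library held 7 UMIs in 20 cells. cDC1 are dendritic cells that present antigen to CD8 T cells and are known to lack CD11b.

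**Figure D1:**
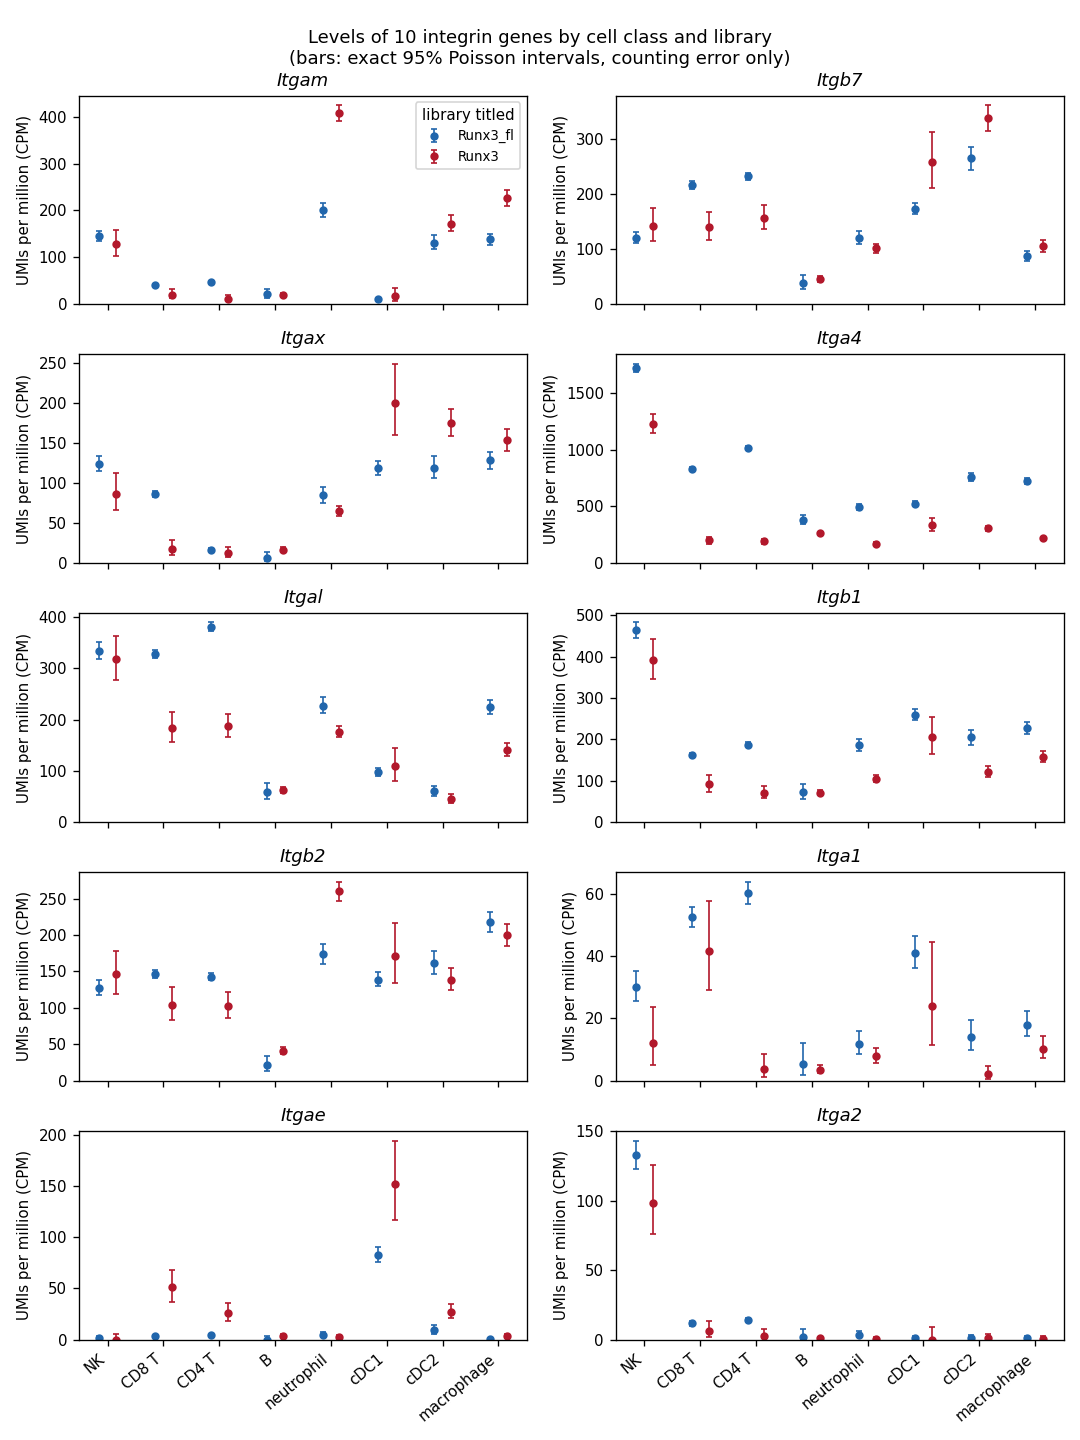
Levels of the 10 integrin genes in CPM (vertical axis, linear from 0, a different range for each gene) in 8 cell classes of the library titled Runx3_fl (blue) and that titled Runx3 (red), with exact 95% Poisson intervals. Itgam stands high in NK cells, neutrophils, cDC2 and macrophages, Itgae in cDC1, Itga2 in NK cells, and Itga4 is lower in the Runx3 library in each of the 8 classes.

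The share of cells with an Itgam UMI put the same 4 classes on top. After each cell was thinned to 2000 UMIs, since median depth ran from 3598 UMIs in neutrophils to 24179 in cDC1 of the Runx3_fl library, an Itgam UMI was detected in 34.8% (31.0 to 38.7) and 39.3% (35.5 to 43.2) of neutrophils, 23.7% (19.0 to 28.9) and 35.3% (29.6 to 41.3) of macrophages and 26.2% (22.5 to 30.1) and 24.1% (13.5 to 37.6) of NK cells. In cDC1, taken as the class that should lack the gene, it was found in 2.48% (0.915 to 5.32) and in 0 of 20 cells, an interval that reached 16.8%. B cells had 4.38% (1.62 to 9.29) and 3.08% (2.12 to 4.32), which overlapped cDC1 in both libraries. CD8 T cells (8.12%, interval 6.65 to 9.78) and CD4 T cells (8.01%, interval 6.61 to 9.60) of the Runx3_fl library lay above cDC1, and in the Runx3 library 2.27% (0.276 to 7.97) and 1.36% (0.165 to 4.83) did not. Cells with fewer UMIs were left out, 49 and 59 of the neutrophils and at most 14 of any other class in a library. Before thinning, the shares in neutrophils were 53.0% and 63.8%, and in cDC1 13.9% and 20.0%.

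**Figure D2:**
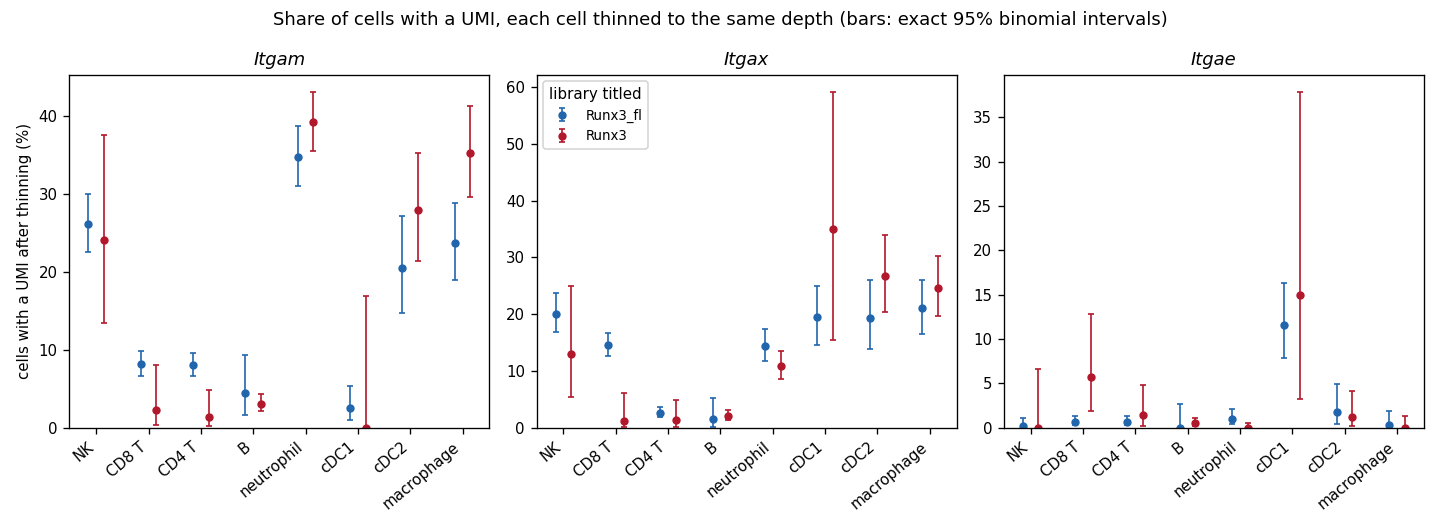
Percent of cells with at least 1 UMI of Itgam, Itgax or Itgae (vertical axis, from 0) in 8 cell classes after thinning each cell to 2000 UMIs, for the libraries titled Runx3_fl (blue) and Runx3 (red), with exact 95% binomial intervals. Neutrophils have an Itgam UMI in 34.8% and 39.3% of cells, with overlapping intervals, and the highest Itgae share is in cDC1, with an interval that overlaps CD8 T cells in the Runx3 library.

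The 250 bases before the start of Itgam (RefSeq, GRCm38.p6, chr7:128062390-128062639, plus strand) are shown because Itgam is the gene of the sort and leads in myeloid classes, with capitals for GAGGAA on either strand, the core letters of sites bound by PU.1, a factor of the myeloid lineage.
Itgam: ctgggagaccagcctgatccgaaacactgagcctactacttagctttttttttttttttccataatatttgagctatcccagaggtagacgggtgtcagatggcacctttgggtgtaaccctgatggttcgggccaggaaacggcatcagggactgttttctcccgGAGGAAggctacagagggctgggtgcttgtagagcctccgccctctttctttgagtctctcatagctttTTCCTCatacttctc
The letters GAGGAA occur here 2 times, 84 bases before the start in the gene's direction and 15 bases before it in the opposite one. Of the 7 genes of the set in the promoter table, Itgam and Itgb1 held them, and 23.3% of all 32851 promoter windows of this length did. A match of letters is a description and not a bound site.

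Itgax (chr7:128129547-128150657, plus strand), the neighbour of Itgam on chromosome 7 and a marker of dendritic cells and macrophages, had no single leading class. In the Runx3_fl library it was at 128 CPM in macrophages, 124 in NK cells, 119 in cDC2 and 118 in cDC1, and each neighbour in this order overlapped the next. In the Runx3 library cDC1 led with 200.1 CPM (159 to 248), then cDC2 with 175 (159 to 193) and macrophages with 153 (140.1 to 167), each again overlapping the next, and NK cells lay below them at 86.6 (65.8 to 112). B cells had 6.26 and 16.6 CPM and CD4 T cells 17.0 and 13.1 CPM, while CD8 T cells of the Runx3_fl library reached 86.4 CPM (82.3 to 90.6), which overlapped its neutrophils (84.6 CPM, interval 75.3 to 94.6). The remaining beta 2 genes were present in every class. Itgal (chr7:127296260-127335138, plus strand), the alpha chain of LFA-1, was led by lymphocytes: CD4 T, NK and CD8 T cells had 381, 334 and 328 CPM in the Runx3_fl library, and 187, 318 and 183 CPM in the Runx3 library. It was low in cDC2 (60.3 and 45.0 CPM) and B cells (58.4 and 62.8 CPM). Itgb2 (chr10:77530252-77565708, plus strand), the shared beta chain, was at 218 and 199.8 CPM in macrophages and 174 and 259.9 CPM in neutrophils, and at its lowest in B cells with 21.9 and 41.1 CPM.

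Itgae (chr11:73090583-73147446, plus strand) was the more restricted gene of the beta 7 pair. Among the 8 classes it was highest in cDC1, where the alpha E chain is a known marker, at 83.1 (76.0 to 90.8) and 152 CPM (117 to 194). These cells held 42.3% of all Itgae UMIs of the Runx3_fl library while making up 2.06% of its cells. In the Runx3 library cDC1 held 10.3% of the Itgae UMIs, from 0.245% of the cells, beside 10.7% in cDC2 and 7.22% in CD8 T cells. Among the 8 classes no interval of another class reached that of cDC1 in either library. The CD4 T cells with Foxp3 described below lay above cDC1 in the Runx3_fl library, at 137 CPM (95.9 to 190). These were 23 cells, in which genes of other lineages stood at 46.8% of their whole-library level. In the Runx3 library the CD4 T cells with Foxp3 overlapped cDC1, at 107 CPM (74.3 to 148). The next of the 8 classes in the Runx3_fl library were cDC2 with 9.09 CPM, neutrophils with 4.44, CD4 T cells with 4.19 and CD8 T cells with 3.49. In the Runx3 library CD8 T cells had 51.0 (37.0 to 68.4), cDC2 had 27.1 (20.9 to 34.5) and CD4 T cells had 26.1 CPM (18.3 to 36.1). NK cells held 9 and 0 Itgae UMIs and macrophages 3 and 10. After thinning, an Itgae UMI was detected in 11.6% (7.83 to 16.3) and 15.0% (3.21 to 37.9) of cDC1, against 0.333% (0.00844 to 1.84) and 0% (0 to 1.35) of macrophages, taken as a class that should lack it. Itgb7 (chr15:102215995-102231944, minus strand), its partner chain, was broad. cDC2 led with 264 and 337 CPM, cDC1 had 173 and 258 CPM and CD4 T cells 232 and 157 CPM, and B cells were lowest with 38.6 and 45.5 CPM.

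Itga4 (chr2:79255426-79333123, plus strand), which pairs with beta 7 or beta 1, was led by NK cells in both libraries, with 1721 (1685 to 1758) and 1226 CPM (1144 to 1313), and no other of the 8 classes reached them. The order of the rest differed. In the Runx3_fl library CD4 T cells (1016 CPM) and CD8 T cells (833 CPM) came next and B cells (383 CPM) last. In the Runx3 library cDC1 (339.9 CPM), cDC2 (308 CPM) and B cells (263 CPM) came next, and CD8 T cells, CD4 T cells and neutrophils, with 199, 191 and 172 CPM, were last, each overlapping the next. The bases before its start (RefSeq, GRCm38.p6, chr2:79255176-79255425, plus strand) are shown because Itga4 was the gene that differed between the libraries in the most classes. The capitals mark ACCACA, which on the other strand reads TGTGGT, a core of sites bound by RUNX factors.
Itga4: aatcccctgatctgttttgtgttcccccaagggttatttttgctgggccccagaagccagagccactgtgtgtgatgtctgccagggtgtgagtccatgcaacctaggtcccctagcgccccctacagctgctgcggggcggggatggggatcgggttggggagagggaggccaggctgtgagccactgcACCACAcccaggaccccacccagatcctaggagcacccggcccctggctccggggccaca
The search was for TGTGGT and TGCGGT on both strands. Itga4 was the only one of the 7 genes in the promoter table to hold either, 60 bases before the start, and 18.6% of all 32851 windows did. Itgal, Itgb2 and Itgae were not in that table. That these letters are absent from a window of 250 bases says nothing of binding elsewhere.

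Itgb1 (chr8:128685654-128733200, plus strand), the beta chain shared by the collagen and fibronectin receptors, was also led by NK cells, at 465 (446 to 484) and 393 CPM (347 to 443), followed by cDC1 with 259 (247 to 273) and 205 (164 to 253). B cells were lowest, at 72.0 and 70.2 CPM. Itga2 (chr13:114833081-114932100, minus strand), whose product CD49b is used to mark mouse NK cells, had its highest level of the 8 classes in NK cells. NK cells had 132 (123 to 143) and 98.6 CPM (76.2 to 125), CD4 T and CD8 T cells of the Runx3_fl library had 13.9 and 11.6 CPM, from 269 and 225 UMIs beside 665 in its NK cells, and the other 5 classes held between 0 and 12 UMIs in a library. Outside the 8 classes, basophils (Mcpt8) held 0 UMIs in 2 cells and 12 UMIs in 5 cells. The latter stood at 190 CPM (98.2 to 332), which overlapped NK cells of the Runx3 library. After thinning, an Itga2 UMI was detected in 18.2% (15.1 to 21.7) and 16.7% (7.92 to 29.3) of NK cells, against 0% (0 to 1.22) and 0% (0 to 1.35) of macrophages. Itga1 (chr13:114953096-115101964, minus strand), a marker of tissue-resident lymphocytes, was higher in CD4 T cells (60.2 CPM, interval 56.8 to 63.7), CD8 T cells (52.5 CPM) and cDC1 (41.1 CPM) than in NK cells (30.1 CPM, interval 25.5 to 35.3) of the Runx3_fl library. In the Runx3 library CD8 T cells, cDC1 and NK cells had 41.7, 24.1 and 11.9 CPM and CD4 T cells 3.63, and each class overlapped the next. Pelo lies within Itga1 on the same strand in the annotation, so the level of Itga1 is uncertain.

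The question of the series was how the libraries with and without Lyz2-Cre differ, and here each class was compared between the titles. Itga4 was lower in the Runx3 library in all 8 classes, beyond counting error in each, and in 5 of them by more than 2-fold. Ptprc, which codes for CD45 and is not in the set, was also lower, at 2561 and 1083 CPM over all cells. It was at 4380 and 2439 CPM in NK cells, 3575 and 1617 in CD8 T cells and 3350 and 1813 in CD4 T cells. It was at 1913 and 1153 CPM in neutrophils, 1307 and 1027 in cDC2 and 1502 and 1041 in macrophages. In B cells it overlapped (955 and 899 CPM), and in cDC1 it was higher (892 and 1118 CPM). Itgae was higher in CD8 T cells, CD4 T cells, cDC1 and cDC2, the 4 classes where it passed the filter on low values. In CD8 T cells, CD4 T cells and cDC2 it reached 10 CPM only in the Runx3 library. Passing there required a higher level in that library, so these directions followed from the filter. Among classes that did not pass, it was lower in NK cells (1.79 and 0 CPM) and neutrophils (4.44 and 2.40 CPM). It was higher in B cells (0 and 3.53 CPM) and macrophages (0.674 and 3.03 CPM). Itgam was higher in the Runx3 library in neutrophils, macrophages and cDC2 and lower in CD4 T and CD8 T cells, but in both kinds of T cell it was higher, by 0.16 and 0.30 on the log2 scale, when cells that passed several gates were kept. Of 80 pairs of a gene and a class, 70 had at least 10 CPM in a library and passed. Of these, 5 were at least 2-fold higher and 13 at least 2-fold lower in the Runx3 library, on the scale of log2 of CPM plus 1. Among all genes tested, 5.44% to 16.4% were as much higher and 1.18% to 12.1% as much lower, depending on the class. Itgae in CD8 T cells, CD4 T cells and cDC2 and Itgax in B cells reached 10 CPM only in the Runx3 library. Itga1 and Itga2 in CD4 T cells and Itga1 in cDC2 reached it only in the Runx3_fl library. The direction of these calls followed from the filter. Libraries, mice and cell makeup of a class cannot be told apart in this comparison.

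**Figure D3:**
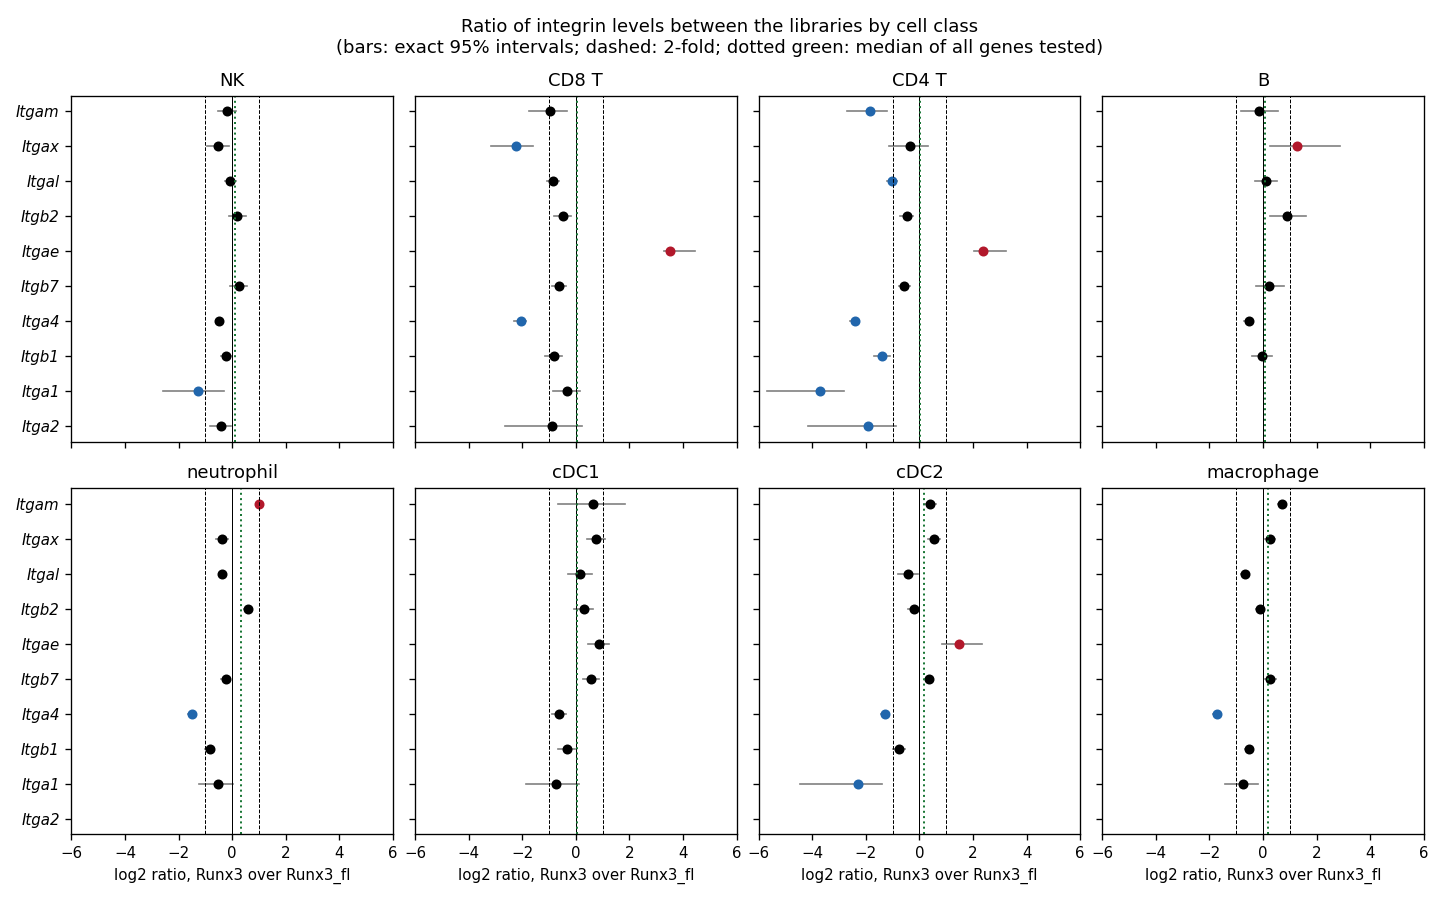
Log2 ratio of the level in the library titled Runx3 over that titled Runx3_fl (horizontal axis) for each integrin gene in 8 cell classes, with exact 95% intervals, red and blue points for ratios of at least 2-fold higher and lower, dashed lines at 2-fold and a dotted line at the median of all genes tested in the class. Points are left out where a gene had under 10 CPM in both libraries. Itga4 lies left of 0 in every panel.

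In macrophages, a class in which Lyz2-Cre is known to act, 8 of the 10 genes passed, 0 were 2-fold higher and 1 was 2-fold lower, against 11.3% higher and 3.38% lower among all genes of that class. The gene that was lower was Itga4, at 722 (697 to 747) and 217 CPM (201 to 234). Its log2 ratio was -1.73 (-1.85 to -1.62), below that of all but 0.972% of the genes tested. Itgam had a ratio of 0.71 (0.56 to 0.87) and Itgal one of -0.67 (-0.83 to -0.51), both outside counting error and under 2-fold, and the ratio of Itgam ran from 0.54 to 0.83 over 13 other settings. Itgb1 had -0.53 (-0.68 to -0.37), Itgb7 0.27 (0.06 to 0.48) and Itgax 0.25 (0.08 to 0.43), while Itgb2 (-0.12, interval -0.27 to 0.02) overlapped 0. With cells of several gates kept, Itgb7 and Itgax turned to -0.04 and -0.05. The median of the genes that passed was -0.32 and that of all genes 0.17. Genes of other lineages in macrophages stood at 9.37% and 15.3% of their level in the whole library. Taking that share of the whole-library level off each class left 17 of the 18 differences of all classes at 2-fold.

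In neutrophils 8 genes passed, with 1 at least 2-fold higher (16.4% of all genes) and 1 at least 2-fold lower (5.45%). The first was Itgam, whose log2 ratio was 1.02 (0.90 to 1.14), and the second Itga4, with 494 and 172 CPM and a ratio of -1.52 (-1.63 to -1.41). The median gene of the class stood at 0.32, and relative to it Itgam was at 0.69. The share of thinned neutrophils with an Itgam UMI overlapped between the libraries, and without cells of more than 2 times the class median of UMIs the ratio of Itgam was 0.39 and that of Itga4 -0.81, so neither was then 2-fold. The median depth of the class was 3598 and 5599 UMIs. Itgb2 moved with Itgam, with a ratio of 0.58 (0.44 to 0.71), and Itgax (-0.38), Itgal (-0.37) and Itgb1 (-0.83) were lower beyond counting error. Without the deep cells Itgb2 was at 0.44, Itgax at 0.03, Itgal at -0.16 and Itgb1 at -0.44, so Itgax was then no longer lower. Genes of other lineages stood at 14.1% and 23.9% of their whole-library level in neutrophils, the highest share of the 8 classes.

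T cells held 10 of the 18 differences of 2-fold, and they were also the classes with the largest shares of all genes at least 2-fold lower. In CD4 T cells 10 genes passed, with 1 higher (12.7% of all genes) and 6 lower (9.22%), and in CD8 T cells 10 passed, with 1 higher (13.9%) and 2 lower (12.1%), which is near the share of all genes. Itga4 was at 1016 and 191 CPM in CD4 T cells, a log2 ratio of -2.41 (-2.59 to -2.24), and at 833 and 199 CPM in CD8 T cells, a ratio of -2.06 (-2.29 to -1.85). Itga1 was at 60.2 and 3.63 CPM in CD4 T cells, with 5 UMIs in the Runx3 library, against 52.5 and 41.7 CPM in CD8 T cells. Itgb1 (-1.38, interval -1.70 to -1.10), Itgal (-1.02, interval -1.21 to -0.85) and Itga2 (-1.94, interval -4.15 to -0.89, on 4 UMIs in the Runx3 library) were also more than 2-fold lower in CD4 T cells. Itga1 and Itga2 passed in CD4 T cells only through the Runx3_fl library, so their direction followed from the filter. Itgax in CD8 T cells was at 86.4 (82.3 to 90.6) and 17.4 CPM (9.73 to 28.7), a ratio of -2.25 (-3.15 to -1.59), which ran from -2.97 to -1.65 over the other settings. Itgam in CD4 T cells had a ratio of -1.83 (-2.70 to -1.23), which was 0.16 when cells that passed several gates were kept and -0.98 with a gate at 3 UMIs. Of the others in CD4 T cells, Itgal was under 2-fold in 3 settings and Itgb1 in 1. The CD4 T class held 1340 and 148 cells and the CD8 T class 1232 and 88, and genes of other lineages stood at 10.0% and 5.83% of their whole-library level in CD4 T cells and at 4.91% and 9.50% in CD8 T cells.

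Itgae ran the other way in T cells. In CD8 T cells it was at 3.49 (2.71 to 4.43) and 51.0 CPM (37.0 to 68.4), from 68 and 44 UMIs, and the log2 ratio of 3.53 (3.29 to 4.44) ran from 2.72 to 3.94 over the other settings. An Itgae UMI was detected in 0.649% (0.281 to 1.28) and 5.68% (1.87 to 12.8) of thinned CD8 T cells. In CD4 T cells the ratio was 2.38 (2.03 to 3.22), and most of those UMIs in the Runx3 library lay in cells with a UMI of Foxp3, the factor that defines regulatory T cells. These cells were 23 of 1340 CD4 T cells (1.72%) in the Runx3_fl library and 30 of 148 (20.3%) in the Runx3 library. They held 36 of 81 and 35 of 36 Itgae UMIs of the class, and their Itgae levels of 137 and 107 CPM overlapped between the libraries. Genes of other lineages stood at 46.8% and 5.83% of their whole-library level in these cells. In CD4 T cells without a Foxp3 UMI Itgae was at 2.36 (1.72 to 3.16) and 0.952 CPM (0.0241 to 5.30), from 45 and 1 UMIs. These levels overlapped and lay under the filter of 10 CPM, and the ratio there was -0.78. This split was made after the values were seen.

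In NK cells, of which there were 543 and 54, 9 genes passed, with 0 higher (9.69% of all genes) and 1 lower (2.52%). That gene was Itga1, at 30.1 (25.5 to 35.3) and 11.9 CPM (5.16 to 23.5), on 8 UMIs in the Runx3 library. Itga4 (-0.49, interval -0.59 to -0.39), Itgax (-0.51, interval -0.93 to -0.13), Itga2 (-0.42, interval -0.81 to -0.06) and Itgb1 (-0.24, interval -0.43 to -0.06) were lower by under 2-fold, and Itgam, Itgal, Itgb2 and Itgb7 overlapped 0. In B cells, 138 and 1053 in number, 7 genes passed, with 1 higher (5.44%) and 0 lower (1.18%). The former was Itgax, from 6 and 127 UMIs, whose log2 ratio of 1.28 (0.25 to 2.88) fell to -0.92 with a gate at 1 UMI and was under 2-fold in 6 of the 13 other settings. Itgax passed there only through the Runx3 library (6.26 and 16.6 CPM), so its direction followed from the filter. After thinning, an Itgax UMI was detected in 1.46% (0.177 to 5.17) and 2.02% (1.26 to 3.07) of B cells, and genes of other lineages stood at 3.56% and 13.3% of their whole-library level there.

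Dendritic cells had fewer 2-fold differences than T cells. In cDC1, with 245 and 20 cells, 9 genes passed and 0 were 2-fold higher (9.06% of all genes) or lower (6.72%). Itgae (0.86, interval 0.47 to 1.25), Itgax (0.75, interval 0.41 to 1.09) and Itgb7 (0.57, interval 0.27 to 0.86) were higher in the Runx3 library beyond counting error and Itga4 (-0.62, interval -0.88 to -0.38) and Itgb1 (-0.34, interval -0.67 to -0.03) lower. In cDC2, with 176 and 175 cells, 9 passed, with 1 higher (9.76%) and 2 lower (2.27%). Itga4 was at 759 (724 to 794) and 308 CPM (286 to 331), with a log2 ratio of -1.30 (-1.43 to -1.18), and Itga1 at 14.0 and 2.08 CPM, from 34 and 5 UMIs. Itga1 passed there only through the Runx3_fl library, so its direction followed from the filter. Itgae in cDC2 had a ratio of 1.48 (0.86 to 2.34), but its 65 UMIs in the Runx3 library came from 8.57% of the cells, the thinned shares of 1.70% (0.353 to 4.90) and 1.16% (0.141 to 4.14) overlapped, and the ratio was 0.45 without cells of more than 2 times the class median of UMIs. Itgax (0.55, interval 0.34 to 0.78), Itgam (0.39, interval 0.18 to 0.61) and Itgb7 (0.35, interval 0.20 to 0.50) were higher by under 2-fold. Genes of other lineages stood at 2.45% and 10.3% of their whole-library level in cDC2.

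Gene by gene, Itga4 had a median log2 ratio of -1.41 over the 8 classes, from -2.41 in CD4 T cells to -0.49 in NK cells, and it lay among the lowest 14.3% or less of the genes tested in every class. The ratio nearest to 0 in any setting was in NK cells, where it ran from -0.60 to -0.23, and none of the settings turned its direction in any class. Itgb1 was lower beyond counting error in 7 of 8 classes, with a median of -0.64, and overlapped 0 in B cells. Its ratio was at or above that of 4.08% (cDC2) to 39.6% (B cells) of the genes tested. Itgb7, the other partner of alpha 4, was not lower as a rule: it was higher beyond counting error in 3 classes (cDC1, cDC2 and macrophages) and lower in 3 (CD8 T cells, CD4 T cells and neutrophils), of which neutrophils turned to 0.33 without the deep cells and macrophages to -0.04 with cells of several gates kept. Itgal was lower in 5 classes and higher in 0, and Itgb2 was higher in 2 (B cells and neutrophils) and lower in 3. The share of all genes beyond counting error is not given, so these counts cannot be read as particular to these genes. The median log2 ratio of the genes that passed was -1.20 in CD4 T cells, -0.83 in CD8 T cells, -0.37 in neutrophils, -0.24 in NK cells, -0.22 in cDC2, 0.10 in B cells and 0.30 in cDC1. The median of all genes tested was 0.03, 0.06, 0.32, 0.10, 0.18, 0.06 and 0.03 in the same order.

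Monocytes enter the gut with Ly6C on their surface and lose it as they become macrophages. Cells with Csf1r and Ly6c2 but no C1qa UMI (508 and 480) were set beside macrophages with Ly6c2 (180 and 201) and macrophages without a Ly6c2 UMI (69 and 45). Chil3, a marker of monocytes, was not 2-fold higher in them than in the other cells, and they were also led by the inflammatory genes Il6 and Cfb. Itgam fell along this order in the Runx3_fl library and not in the Runx3 library. In the Runx3_fl library it was at 169.7 (160.1 to 179.7), 144 (130.0 to 159) and 106 CPM (86.0 to 129), each below the one before, and in the Runx3 library at 209.5 (197 to 223), 226 (207 to 245) and 234 CPM (193 to 283), which overlapped. Its log2 ratio between the libraries was 0.30 (0.18 to 0.43) in monocytes, 0.65 (0.46 to 0.84) in Ly6c2 macrophages and 1.14 (0.74 to 1.56) in those without Ly6c2. In the same order, these ratios were at or above those of 56.3%, 78.4% and 82.3% of the genes tested. Genes of other lineages stood at 9.26% and 19.1% of their whole-library level in monocytes. Their share was 9.71% and 12.4% in Ly6c2 macrophages and 3.62% and 5.33% in those without Ly6c2. Itgax was higher in macrophages without Ly6c2, at 204 (176 to 235) and 282 CPM (236 to 334), than in monocytes, at 94.2 and 88.4 CPM, in both libraries. Itga4 was lower in the Runx3 library in all 3 states: 669.7 and 288 CPM in monocytes, 761 and 227 CPM in Ly6c2 macrophages and 685 and 136 CPM in those without Ly6c2. Itgb7, the gut-homing partner chain, was highest in monocytes (157 and 221 CPM) and lowest in macrophages without Ly6c2 (82.4 and 36.6 CPM) in both libraries, with overlap between both macrophage states of the Runx3_fl library.

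**Figure D4:**
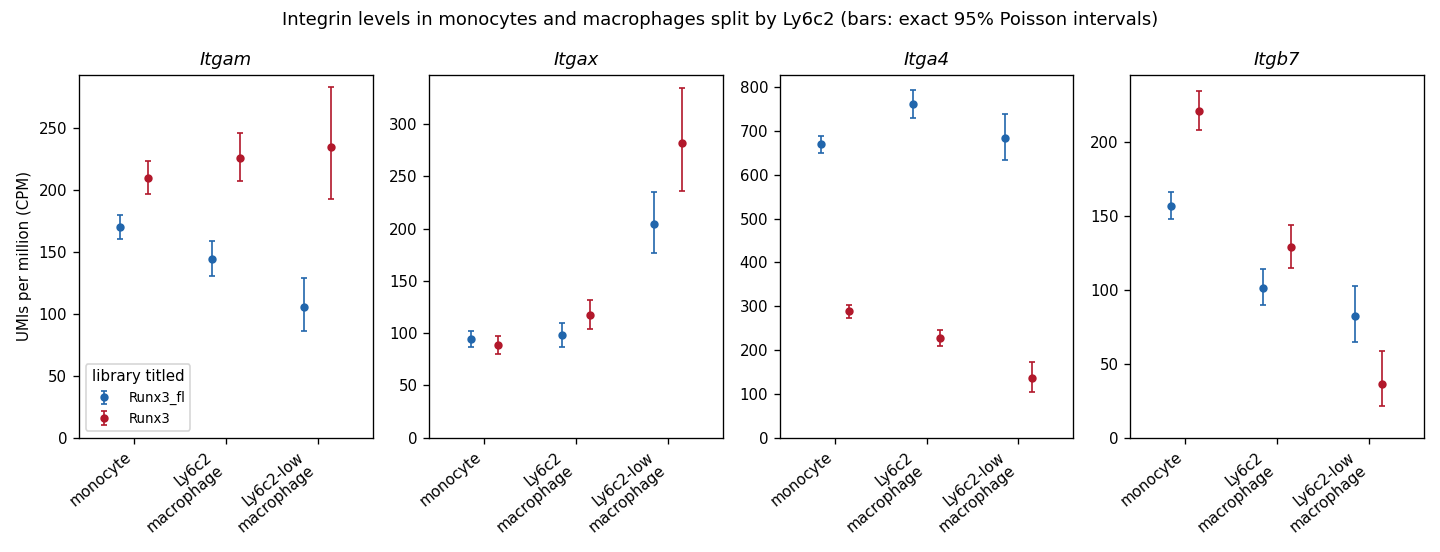
Levels of Itgam, Itgax, Itga4 and Itgb7 in CPM (vertical axis, from 0) in monocytes, macrophages with Ly6c2 and macrophages without a Ly6c2 UMI of the libraries titled Runx3_fl (blue) and Runx3 (red), with exact 95% Poisson intervals. Itgam falls over the 3 states in the Runx3_fl library and not in the Runx3 library, and Itgax is highest in macrophages without Ly6c2 in both.

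Whether pairs of subunits shared cells was described within classes after thinning, and the intervals of cells with and without the second subunit overlapped in each of the pairs given. In macrophages an Itgam UMI was found in 19.0% (10.2 to 30.9) of 63 cells with an Itgax UMI and 24.9% (19.5 to 30.9) of 237 without one in the Runx3_fl library, and in 25 of 67 and 71 of 205 in the Runx3 library. In NK cells of the Runx3_fl library, where CD49a and CD49b are used to tell tissue-resident from circulating cells, an Itga1 UMI was found in 3.03% (0.629 to 8.60) of 99 cells with Itga2 and 4.50% (2.77 to 6.87) of 444 without. In cDC1 of that library Itgae was found in 0 of 6 cells with Itgam and in 11.9% (8.03 to 16.7) of 236 without. In cDC2 no cell held both, of 36 and 48 cells with Itgam. In CD8 T cells of the Runx3_fl library an Itgae UMI was found in 3 of 899 cells with Itga4 and 5 of 333 without, and in the Runx3 library in 1 of 23 and 4 of 65. Itga1 was found in 0 of 8 and 2 of 5 CD8 T cells with Itgae. At this depth no preference for or against sharing cells was detectable.

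Other genes of the pathway are given from 3 lists, against a median log2 ratio of all genes of 0.17 in macrophages, 0.32 in neutrophils and 0.10 in NK cells. The shares of all genes past 2-fold were those above, 11.3% higher and 3.38% lower in macrophages, 16.4% and 5.45% in neutrophils and 9.69% and 2.52% in NK cells. Of 14 other integrins, 5 passed in macrophages, 2 of them higher and 0 lower by 2-fold or more, with a median log2 ratio of 0.81. Of the same 14, 7 passed in neutrophils, 4 of them higher and 0 lower by 2-fold or more, with a median log2 ratio of 1.19, and 5 passed in NK cells, 2 of them higher and 0 lower by 2-fold or more, with a median log2 ratio of -0.28. In CD4 T cells 7 passed, 5 of them higher (Itgav, Itgb8, Itga5, Itga6 and Itga9) and 1 lower (Itgad), against 12.7% and 9.22% of all genes. Their median was 1.60 against 0.03 for all genes, and 6 of the 10 leukocyte integrins were lower there. In CD8 T cells 5 passed, 2 of them higher (13.9% of all genes) and 1 lower (12.1%), with a median of 0.74. In B cells 5 passed, with 1 higher (5.44%) and 0 lower (1.18%). In cDC1 3 passed, with 0 higher (9.06%) or lower (6.72%), and in cDC2 3, with 1 higher (9.76%) and 0 lower (2.27%). Whether the genes called in these 5 classes passed through 1 library only is not given. Itgb2l, a beta 2-like chain of neutrophils, was at 2.50 and 66.4 CPM in neutrophils, and Itgad, the alpha D chain that pairs with beta 2, at 4.98 and 17.9 CPM in NK cells. Itga6, a chain of laminin receptors, was at 9.21 and 31.2 CPM in macrophages and 6.10 and 16 CPM in neutrophils. Itgb5, which pairs with alpha V, was at 44.0 and 121 CPM in macrophages and 11.4 and 31.8 CPM in neutrophils. Itgb2l, Itga6 and Itgb3 in neutrophils, Itga6 in macrophages and Itgad in NK cells were under 10 CPM in the Runx3_fl library. They passed only through the Runx3 library, so their direction followed from the filter.

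Of 20 activators and adaptors, which link integrins to actin or switch them on, 19 passed in macrophages, 1 of them higher and 0 lower by 2-fold or more, with a median log2 ratio of 0.18. Of the same 20, 19 passed in neutrophils, 3 of them higher and 0 lower by 2-fold or more, with a median log2 ratio of 0.47, and 18 passed in NK cells, 1 of them higher and 1 lower by 2-fold or more, with a median log2 ratio of -0.01. Vcl, which codes for vinculin, a link from integrins to actin, was at 57.7 and 141 CPM in macrophages and 92.3 and 219 CPM in neutrophils. Rasgrp2, an exchange factor that activates Rap1, was at 19.7 and 69.5 CPM in neutrophils, and Parvb, a parvin of focal adhesions, at 13.3 and 28.3 CPM in neutrophils. Fyb, the adaptor ADAP, was at 681 and 300.2 CPM in NK cells, and Itgb1bp1, which binds the tail of beta 1, at 21.5 and 44.8 CPM in NK cells. Of 20 ligands, 10 passed in macrophages, 3 of them higher and 2 lower by 2-fold or more, with a median log2 ratio of 0.40. Of the same 20, 8 passed in neutrophils, 1 of them higher and 2 lower by 2-fold or more, with a median log2 ratio of -0.00, and 8 passed in NK cells, 4 of them higher and 0 lower by 2-fold or more, with a median log2 ratio of 1.08. Those 4 (Col4a1, Vcam1, F11r and C3) were under 10 CPM in the Runx3_fl library, as were Col4a1 and Col1a2 in macrophages. Passing there required a higher level in the Runx3 library, so their direction followed from the filter. Thy1 in neutrophils passed only through the Runx3_fl library. In the remaining 5 classes 17 to 18 adaptors passed, with 1 to 3 higher and 0 to 1 lower. Of the ligands 3 to 6 passed there, with 0 to 3 higher and 0 lower. Among all genes of these classes 5.44% to 13.9% were as much higher and 1.18% to 12.1% as much lower. Whether the genes called there passed through 1 library only is not given. Col4a1, a basement membrane collagen, was at 0.797 and 14.9 CPM in NK cells and 2.02 and 12.7 CPM in macrophages, and the fibroblast collagen gene Col1a2 at 2.02 and 10.0 CPM in macrophages. F11r (JAM-A), a ligand of LFA-1, was at 2.99 and 16.4 CPM in NK cells, and Thy1, a ligand of Mac-1 known from T cells, at 17.2 and 4.12 CPM in neutrophils. Vcam1, a ligand of alpha 4 beta 1, was at 0.996 and 10.5 CPM in NK cells. Chosen after their values were seen, Vcam1 was at 98.1 and 40.6 CPM in macrophages and Icam1, the main ligand of LFA-1, at 942 and 404 CPM in neutrophils. Genes of other lineages stood at 4.0% and 8.03% of their whole-library level in NK cells, and their part in the ligand values was not tested.

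For each integrin gene, the genes with the most similar levels were sought over the 16 profiles of 8 classes and 2 libraries, among 8726 genes, as a description without a test, since profiles of a library share its depth and free RNA. Itgam was most like Mapk6 (Pearson r of log2 levels 0.92), Xdh (0.89) and Frrs1 (0.88). Itgb2 was most like Myo1f (0.95), Itgal like AW112010 (0.91), Itgb7 like Actg1 (0.93) and Itga2 like Gzmc (0.96), a granzyme gene. The first genes for Itgax were Zyx, Sema4a and Tln1 (0.88 each), of which Tln1 codes for talin, the protein that activates integrins from inside the cell. Those for Itga4 were Sept11, Serpinb9 and Gm4876 (0.90 to 0.83), and Itgae was led by Hic1 (0.85), Itgb1 by Lrrfip1 (0.89) and Itga1 by Dpp3 (0.82). Among the 10 genes themselves, Itga4 and Itgb1 had the highest correlation (0.81), followed by Itgax and Itgb2 (0.74), while Itgam and Itgb2, partners in Mac-1, stood at 0.56.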

How the data were processed

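The authors deposited, for each library, raw UMI counts per gene and cell from Cell Ranger 7.1.0 (per the file headers), and the submitters' processing notes name mm10 and Seurat 4. Whether intronic reads were counted is not given in the sources used here. Both libraries came from 10x 3' kits. The counts were used as deposited, and levels, ratios and shares were computed from them with Python 3.11.15, numpy 2.4.6 and scipy 1.17.1. Cells with 200 to 6000 genes and at most 15% mitochondrial UMIs were kept, as in the study. A class needed 2 UMIs of its gate genes (1 for Cd4 and Foxp3), and cells that passed several gates, 660 and 962, were left out as possible doublets, with no other doublet caller, while 5189 and 3821 cells passed none. Class names were rebuilt from gates and need not match the study's clusters. Library totals were 136381056 and 65556454 UMIs in kept cells.

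Levels are CPM of a class with exact Poisson intervals. Ratios are log2 of CPM plus 1 in Runx3 over Runx3_fl, with exact intervals of a ratio of 2 Poisson counts (taken without the pseudocount), and 2-fold calls took only genes that reached 10 CPM in either library. A gene under 10 CPM in a library thus passed only if it was higher in the other. Shares are of cells thinned to 2000 UMIs with Clopper-Pearson intervals. The share of genes of other lineages is the median, over their defining genes, of the class level over the whole-library level. The ratio code was tested on simulated data. The count of check markers in monocytes is not reported here. Coordinates are from GENCODE M21 (GRCm38). The genes, lists and gates were chosen with earlier results of these data known, as were the rules for named genes: the 10 members, up to 6 values a list of genes past 2-fold in macrophages, neutrophils or NK cells in order of size, and the 3 most similar genes. There are no replicates, so nothing was left out in turn. Alternatives were 13 settings, 2 of them added after the data were seen (without shared barcodes, and CD4 T cells without a Foxp3 UMI).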

Additional observations from a re-analysis of the deposited data

Results flagged for a closer look

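Itgam was 2-fold apart in opposite directions in 2 classes of the same comparison, with a log2 ratio of the Runx3 over the Runx3_fl library of 1.02 in neutrophils and -1.83 in CD4 T cells. Itgax was likewise higher in B cells, at 1.28, and lower in CD8 T cells, at -2.25. In B cells it passed only through the Runx3 library, so that direction followed from the filter. With 1 library per title the difference between classes was not tested in either case. Of the 4 ratios, that of Itgax in CD8 T cells was 2-fold in all 13 other settings.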

How the results depend on the processing

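Of the 18 pairs of a gene and a class at least 2-fold apart, 10 were 2-fold in the same direction under all 13 other settings, and between 13 and 18 were under each. Among the 10 were Itgae in CD8 T cells, Itga1 and Itga2 in CD4 T cells and Itga1 in cDC2. The direction of these followed from the filter on low values. The count of higher pairs, 5, was 2 without cells of more than 2 times the class median of UMIs and 3 when each cell was weighted equally, and that of lower pairs, 13, stayed within 1.5 times. Of the 70 ratios that passed, 20 changed sign under some setting, 12 of them within counting error of 0 to begin with. Of the 18 pairs, 3 did: Itgax in B cells to -0.92 with a gate at 1 UMI, Itgam in CD4 T cells to 0.16 with cells of several gates kept, and Itgae in CD4 T cells to -0.78 without Foxp3 cells. That last value rested on 1 UMI in the Runx3 library, and the levels overlapped. The other 5 were Itgam in CD8 T cells and Itgax and Itgb7 in macrophages (cells of several gates kept) and Itgax and Itgb7 in neutrophils (without deep cells, and Itgb7 also with cells weighted equally). The cause was not tested, except that Itgae in CD4 T cells follows from the cells left out. Calls that fell under 2-fold were Itgam in neutrophils and Itgax in B cells (6 settings each), Itgal in CD4 T cells (3), Itgam in CD4 T cells and Itgae in cDC2 (2 each), and Itgae and Itgb1 in CD4 T cells and Itga4 in neutrophils (1 each). Of 160 levels, 40 moved beyond their interval with a gate at 1 UMI and 16 at 3 UMIs. Shares depend on depth: 112 of 160 moved at 1000 UMIs and 139 without thinning. Low counts limit the NK, CD8 T and cDC1 classes of the Runx3 library, with 54, 88 and 20 cells. No paired analysis was possible because each title has 1 library.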

Other observations

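Among cells outside the 8 classes, Ccr7 and Fscn1 dendritic cells, which migrate to lymph nodes (147 and 59 cells), had the highest Itga4 of all classes described, at 2492 (2420.1 to 2566) and 1306 CPM (1219 to 1398), the latter overlapping NK cells. Their Itgb7 was at 17.7 and 38.9 CPM, against 264 and 337 CPM in cDC2. Their Itgb1, at 327 and 348 CPM, did not differ beyond counting error between the libraries. Plasma cells, marked by Mzb1, Jchain and Xbp1 (311 and 105 cells), had Itgam at 47.6 (43.0 to 52.4) and 5.39 CPM (2.95 to 9.04), from 403 and 14 UMIs, while genes of other lineages stood at 4.14% and 4.54% of their whole-library level there. Their Itga4 was at 739 and 172 CPM and their Itgb7 at 118 and 84.3 CPM. Cells with CD3 genes but no Cd4, Cd8a or Cd8b1 (438 and 203 cells) had Itgae at 9.21 and 26.7 CPM and Itga2 at 31.4 and 1.82 CPM, the latter from 133 and 3 UMIs.

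Cells with a Foxp3 UMI had Itgb7 at 301 and 249.9 CPM and Itga4 at 502 and 293 CPM, though genes of other lineages stood at 46.8% of their whole-library level in those of the Runx3_fl library. Cells that passed no gate had Itgam at 101 and 130.2 CPM, Itga4 at 1269 and 380.0 CPM and Itga2 at 60.3 and 10.7 CPM. Cells that passed several gates had Itga4 at 693 and 236 CPM.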
